A study of Mus musculus with 6 samples.

Results

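The genes of the Nogo receptor system were followed through the mouse brain at 3 ages. They were Rtn4rl2, Rtn4r and Rtn4rl1, which encode the Nogo receptors, and Rtn4, which encodes Nogo, a ligand of the Rtn4r receptor. The list also held Lingo1, which encodes a co-receptor, and Gap43, which encodes a protein of the growing axon tip. These 6 of the 19465 genes in the files were selected on measured values: Rtn4rl2 for its fall outside its main regions in aged brain, the others as its family, its partners and the best known axon growth gene. Aged vs. adult values of the 6 genes are therefore given as a description without a test. Brains of male C57BL/6J mice gave 6 coronal sections, 2 each from pups at postnatal day 21 (P21), adults of 12 to 15 weeks and aged animals of 28 months, with no transgene and no treatment in any group. All sections were cut from formalin-fixed, paraffin-embedded brains and read with 10x Visium probes, which count unique molecular identifiers (UMIs) per gene in printed spots that each hold several cells. P21 and adult sections lay directly on version 1 slides, whereas probes from aged sections were moved by a CytAssist instrument onto version 2 slides, so age cannot be told apart from slide version, probe version, transfer and software in any aged vs. adult value.

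Nogo receptors are leucine-rich repeat proteins that neurons carry on a lipid anchor. The receptor encoded by Rtn4r binds Nogo, myelin-associated glycoprotein and oligodendrocyte myelin glycoprotein, which myelin displays. Because it does not span the membrane, it signals through co-receptors such as LINGO1 and the p75 neurotrophin receptor. The signal runs through RhoA and its kinase ROCK, collapses growth cones and limits sprouting after the juvenile period. GAP43 sits at the inner membrane of growth cones and presynaptic endings and binds calmodulin, and it is the classic marker of axon growth and regeneration.

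After filtering, 20336 spots were kept, 2917 to 3679 per section, with 42422997 to 106783660 UMIs per section and a median of 12074.5 to 25535 UMIs per spot. Spots were named by clusters and marker genes as cerebral cortex (CTX, 6596 spots), hippocampus (HP, 1906), thalamus (TH, 3328), hypothalamus (HY, 3611), striatum (STR, 1133), fiber tracts (FT, 2119), ventricular system (VS, 340) and thalamic reticular nucleus (RT, 242), and 1061 spots had no name. When each section was clustered alone, 74.9 to 94.2% of the spots named both ways kept their region, and 2482 spots had no name. All 6 genes were left out of the clustering. For each region the UMIs of a section were summed, and levels are CPM (each gene's UMIs per 1000000 UMIs of that sum) scaled by edgeR's TMM factors. Probe pairs differ between genes, so a level of one gene is not set against that of another. A lower level in a region can stand for fewer cells of a type or for less RNA per cell, which spots cannot tell apart.

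Rtn4rl2, whose product binds myelin-associated glycoprotein, was a gene of the cortex and hippocampus at every age. In CTX its level was 209 and 218 CPM at P21, 179 and 182 in adult mice and 221 and 193 in aged mice. In HP, its home region by the highest adult level, it was 180 and 191 CPM at P21, 185 and 205 in adult mice and 210 and 220 in aged mice. In both regions the aged sections were above the adult ones, and in CTX they overlapped the P21 sections. Without the TMM factors the HP values of aged (201 and 220 CPM) and adult sections (187 and 205 CPM) overlapped.

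In TH, by contrast, Rtn4rl2 stood at 34.6 and 37.2 CPM at P21, 39.2 and 37.7 CPM in adult mice and 3.54 and 3.71 CPM in aged mice. The aged values rested on 45 and 46 UMIs, against 335 and 383 UMIs in the adult sections. In HY it was 36.4 and 36.8 CPM at P21, 48.2 and 36.7 in adult mice and 7.44 and 11.9 in aged mice. STR gave 74.8 and 73.0 CPM at P21, 77.8 and 63.2 in adult mice and 14.5 and 19.8 in aged mice. In FT the values were 70.9 and 75.6, 65.3 and 66.5, and 18.0 and 16.3 CPM in the same order. Both aged sections were below all 4 younger sections in each of these regions, and the fitted aged vs. adult log2 fold change was −3.40 in TH, −2.08 in HY, −2.03 in STR and −1.94 in FT, against 0.20 in CTX and 0.14 in HP. The HY value was −3.26 with each section clustered alone, and the STR value was −3.07 over spots whose neighbors all belonged to STR. Clustered alone, adult section 1 kept the region of only 74.9% of its spots named both ways. Its HY then went from 374 to 642 spots, so the HY value of −3.26 rests on a different set of adult spots. The level over the whole section hardly differed, at 120 and 116 CPM at P21, 120 and 119 in adult mice and 122 and 116 in aged mice. This level also depends on the share of UMIs from CTX, which was larger in aged sections. CTX held 19038792 of 52499064 and 16414145 of 51236277 UMIs in adult sections. In aged sections it held 37364961 of 81997167 and 49575670 of 106783660. The part of this share was not tested. For Rtn4rl2 the ratio of the highest to the lowest of the 6 large regions was 5.95 at P21, 5.07 in adult mice and 59.4 in aged mice.

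**Figure D1:**
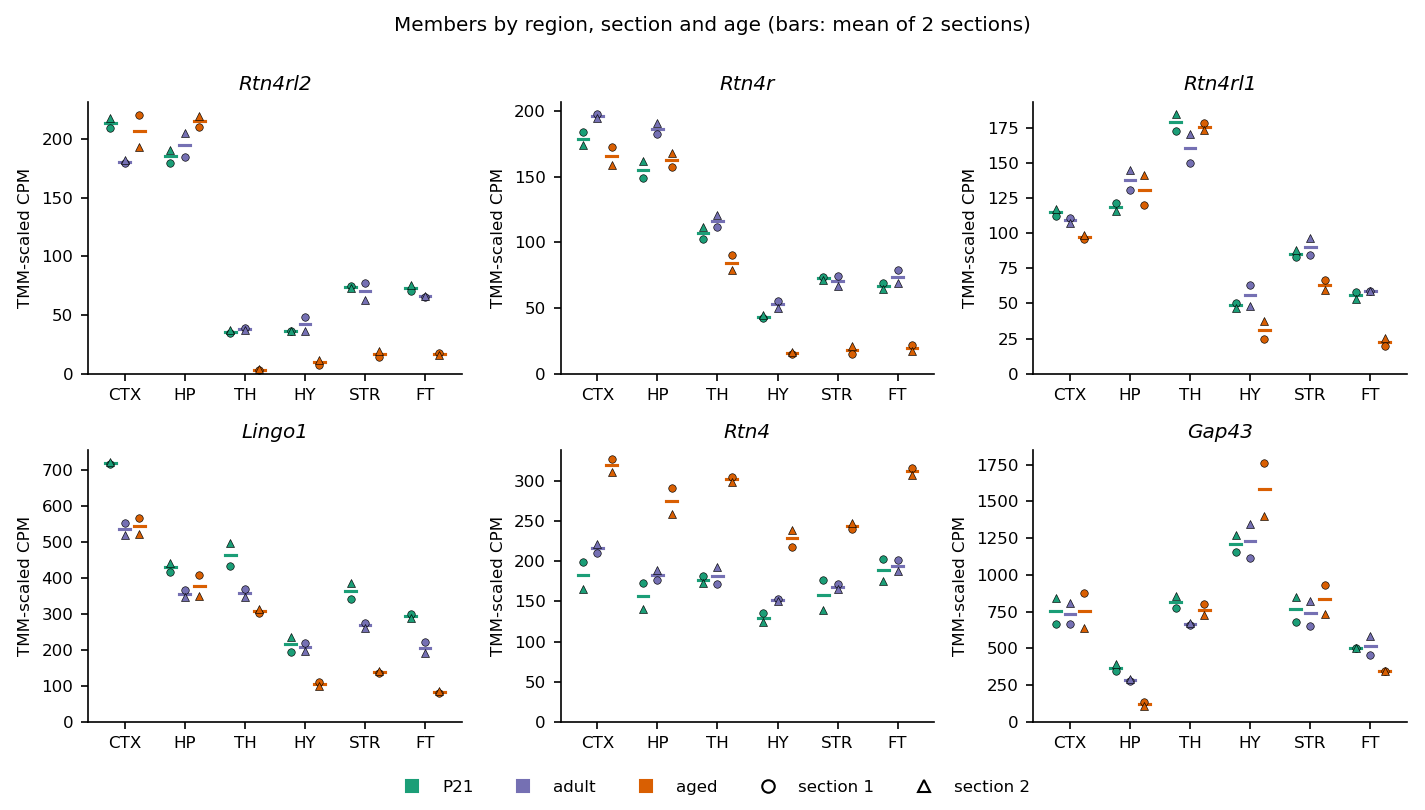
Level of each of the 6 genes (TMM-scaled CPM, linear axis from 0) in the 6 large regions, with 1 point per section, a bar for the mean of 2 sections and color for age. Rtn4rl2 points of the aged sections sit at 3.54 and 3.71 in TH while in CTX and HP they lie above the adult points, and Rtn4 points of the aged sections lie above all others in every region.

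Rtn4r, the first receptor identified for Nogo, shared the high level in CTX and HP but kept a clear level in TH. CTX, its home region, gave 184 and 174 CPM at P21, 197 and 194 in adult mice and 173 and 159 in aged mice. TH gave 102 and 112 CPM at P21, 112 and 121 in adult mice and 90.2 and 78.9 in aged mice. In HY the levels were 42.2 and 44.4 at P21, 55.7 and 49.9 in adult mice, and 15.0 and 16.3 CPM in aged mice, and in STR they were 74.0 and 71.7, 74.2 and 66.5, and 15.4 and 20.8 CPM. Aged sections were lowest in all 3 of these regions, with a log2 fold change of −0.46 in TH, −1.75 in HY and −1.95 in STR. In FT the log2 fold change was −1.92. The HY value was −2.49 with each section clustered alone.

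Rtn4rl1, the third receptor of the family, had its home region in TH instead. TH held 173 and 185 CPM at P21, 150 and 171 in adult mice and 178 and 173 in aged mice, so P21 and aged values overlapped and adult values lay just below them. HP followed with 122 and 116, 131 and 145, and 120 and 142 CPM, and CTX with 112 and 117, 111 and 107, and 95.5 and 98.4 CPM, and at P21 the HP and CTX values overlapped. The FT level was 58.3 and 53.4 CPM at P21, 58.7 and 58.8 in adult mice and 19.995 and 25.4 in aged mice, a log2 fold change of −1.37 for aged vs. adult. Within HP the aged values overlapped both younger groups, whereas in FT both aged sections were below all younger ones.

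Sequence just upstream of both receptor genes with their highest levels in CTX and HP is shown because the pair shared that pattern, although the data do not measure these windows. Rtn4rl2 (ENSMUSG00000050896) spans chr2:84871924-84886710 on the minus strand of GRCm38 and Rtn4r (ENSMUSG00000043811) spans chr16:18127642-18152408 on the plus strand. The RefSeq promoter entries on GRCm38.p6 were cut at the annotated gene start, which left chr2:84886711-84886942 (minus strand, 232 bases) and chr16:18127392-18127641 (plus strand, 250 bases), both just outside the annotated gene. Capitals mark CANNTG, the E-box letters that basic helix-loop-helix factors can bind and that read the same on both strands.
Rtn4rl2: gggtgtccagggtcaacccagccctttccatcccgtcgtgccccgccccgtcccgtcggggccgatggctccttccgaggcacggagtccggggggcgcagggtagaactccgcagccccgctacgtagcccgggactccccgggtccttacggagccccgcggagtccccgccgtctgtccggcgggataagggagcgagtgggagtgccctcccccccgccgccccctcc
Rtn4r: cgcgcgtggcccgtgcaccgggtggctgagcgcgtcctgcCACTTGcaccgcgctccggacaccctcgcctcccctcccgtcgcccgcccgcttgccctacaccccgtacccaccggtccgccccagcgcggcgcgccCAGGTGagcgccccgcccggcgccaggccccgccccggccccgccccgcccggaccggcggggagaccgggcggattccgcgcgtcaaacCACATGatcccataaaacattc
The Rtn4rl2 stretch held 0 matches and the Rtn4r stretch 3, where 66.2% of the 250-base windows of 32851 promoters held at least 1. Both stretches were rich in G and C, with 74.6% for Rtn4rl2 and 77.2% for Rtn4r against a median of 52.4% over the promoters.

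The remaining genes lie apart from each other on the same build. Rtn4rl1 (ENSMUSG00000045287) spans chr11:75193783-75267769 (plus strand), Rtn4 (ENSMUSG00000020458) chr11:29692947-29744331 (plus strand), Lingo1 (ENSMUSG00000049556) chr9:56618475-56796468 (minus strand) and Gap43 (ENSMUSG00000047261) chr16:42248442-42340651 (minus strand).

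Rtn4, which gives rise to Nogo-A and shorter products that the gene counts merge, was the most even of the 6 genes across regions. Its highest region exceeded its lowest by 1.46 times at P21, 1.42 in adult mice and 1.40 in aged mice. In CTX it was 199 and 166 CPM at P21, 211 and 222 in adult mice and 328 and 311 in aged mice. In TH it was 181 and 173 CPM at P21, 171 and 193 in adult mice and 305 and 299 in aged mice. Aged sections were above all younger sections in each of the 6 regions, with log2 fold changes of 0.54 in STR to 0.73 in TH.

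Lingo1, the co-receptor, was highest in CTX at 717 and 722 CPM at P21, 554 and 519 in adult mice and 566 and 521 in aged mice. In HY it was 195 and 236 CPM at P21, 219 and 196 in adult mice and 110 and 100 in aged mice. FT gave 300 and 290 CPM at P21, 222 and 191 in adult mice and 80.8 and 85.8 in aged mice. In CTX the adult and aged values overlapped, whereas in FT the log2 fold change for aged vs. adult was −1.31, and −1.91 over spots whose neighbors all belonged to FT.

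Gap43 had its home region in HY, with 1153 and 1270 CPM at P21, 1112 and 1345 in adult mice and 1765 and 1404 in aged mice. HP was the lowest of the 6 large regions at every age, with 346 and 391 CPM at P21, 281 and 293 in adult mice and 134 and 111 in aged mice. TH gave 778 and 858, 659 and 672, and 800 and 727 CPM. The aged vs. adult log2 fold change was 0.37 in HY and −1.23 in HP, and the ratio of the highest to the lowest region was 3.29 at P21, 4.28 in adult mice and 12.9 in aged mice.

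VS and RT held few spots and were not tested. Rtn4rl2 in RT was 46.6 and 40.5 CPM at P21, 66.2 and 59.8 in adult mice and 2.09 and 9.58 in aged mice, below the younger sections, but on 3 and 12 UMIs. In VS it was 159 and 190, 59.9 and 137, and 75.6 and 146 CPM, with adult and aged ranges that overlapped. Gap43 in RT was 378 and 384 CPM at P21, 338 and 404 in adult mice and 131 and 158 in aged mice.

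The deposited spatial autocorrelation score (Moran's I, where 0 means no spatial pattern and higher values mean that neighboring spots resemble each other) was highest in the aged sections for all 6 genes. For Rtn4rl2 it was 0.506 and 0.370 at P21, 0.291 and 0.313 in adult mice and 0.714 and 0.724 in aged mice. For Rtn4, the even gene, it was 0.116 and 0.0477, 0.0699 and 0.069, and 0.146 and 0.146. Ranked by score among the genes of a section, Rtn4rl2 was at 376 and 322 in adult sections and 55 and 52 in aged ones. Rtn4r, Rtn4rl1 and Lingo1 also ranked nearer the top in aged than in adult sections. Rtn4, at 2964 and 2733 in adult and 3028 and 3582 in aged sections, did not, and Gap43 hardly moved (44 and 44, then 45 and 39). Against P21, Rtn4rl2 and Rtn4r ranked nearer the top in aged sections. Rtn4rl1 ranked farther from it (428 and 529 at P21, 632 and 663 in aged sections). Lingo1 ranks overlapped (87 and 169, then 104 and 125). The score came from the software version of each section and moves with depth, and the part of either was not tested. The share of all genes with their highest score in the aged sections was not computed, so the count of 6 is a description only.

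**Figure D2:**
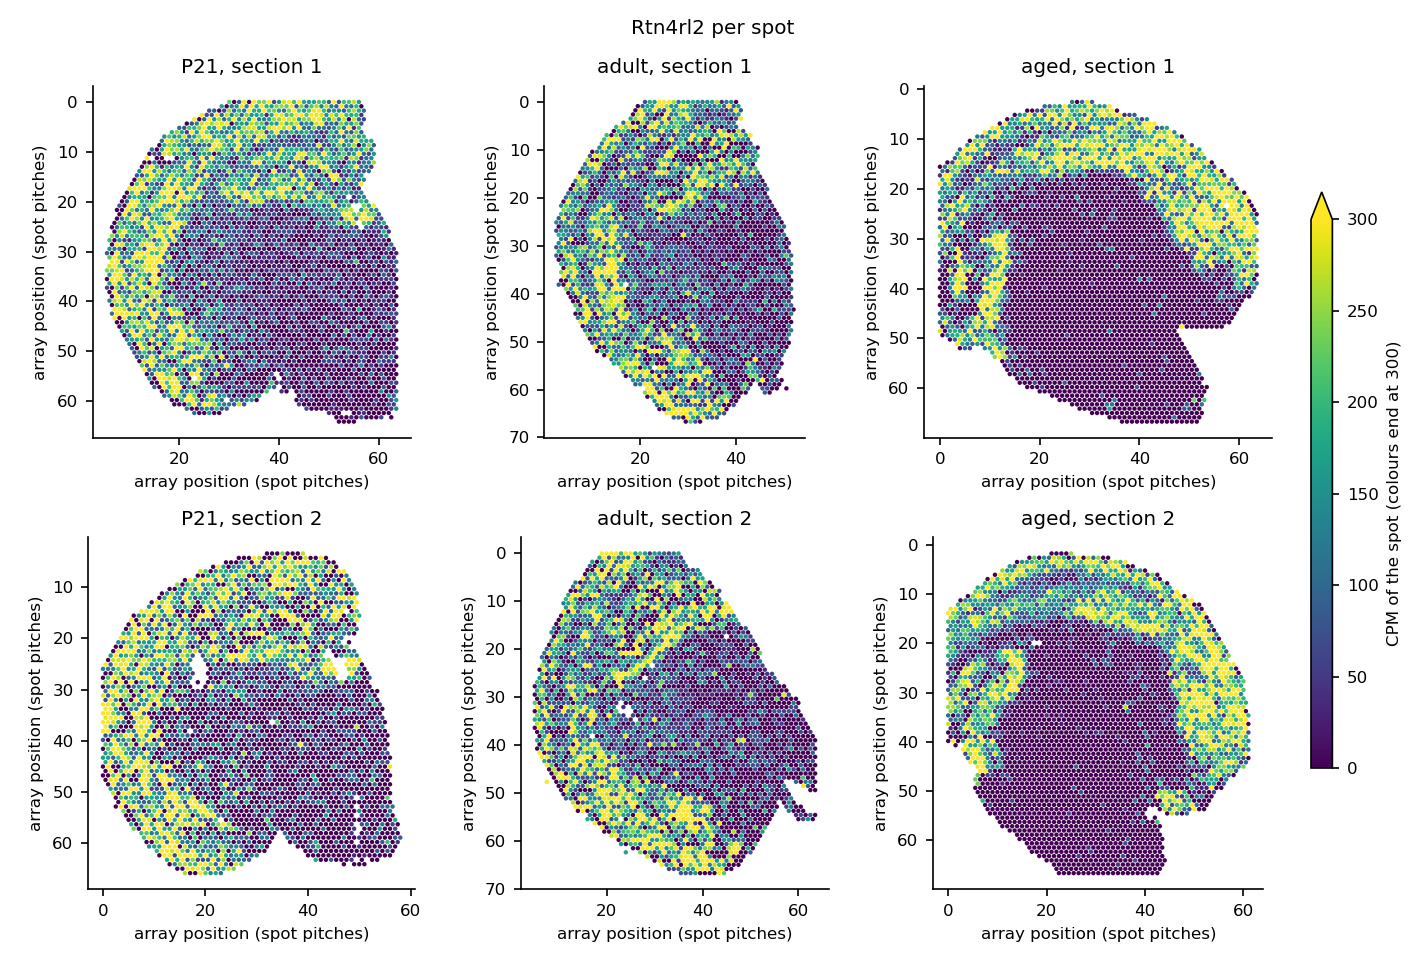
Spots of the 6 sections at their array positions, colored by Rtn4rl2 in CPM of the spot, with colors ending at 300. In the aged sections TH and HY are nearly blank (3.54 and 3.71 CPM in TH), whereas the P21 and adult sections hold scattered counts there.

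Levels at a distance from the home region were read in TH, HY and STR spots by the number of spot spacings to the nearest CTX or HP spot, here in plain CPM without TMM factors. Rtn4rl2 in the P21 section 1 was 78.7 CPM at 1 to 2 spacings, 58.6 at 3 to 4, 45.9 at 5 to 9, 29.4 at 10 to 14, 22.0 at 15 to 19 and 26.1 at 20 or more. Adult section 2 followed nearly the same course, with 62.3, 51.7, 38.3, 33.4, 29.1 and 25.0 CPM. Adult section 1 instead rose again with distance, at 81.9, 61.4, 36.6, 35.3, 44.4 and 76.2 CPM, with 132 spots in the bin of 15 to 19 and 5 in the last. In aged section 1 the values were 28.4, 7.48, 4.01, 3.24, 1.19 and 5.09 CPM, and in aged section 2 they were 42.8, 17.7, 7.49, 1.61, 1.75 and 0 CPM. That 0 stood for 0 UMIs of 1711279 in the bin, which allows up to 1.75 CPM by counting error alone. Both aged sections were below the 4 younger sections in every bin. A bin pools the TH, HY and STR spots it holds, and these regions differ in level, so distance cannot be told apart from region.

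In distant spots, those of TH and HY at least 10 spacings from CTX or HP, Rtn4rl2 was at 14.6 ± 0.50% of its HP level at P21, 17.7 ± 4.1% in adult mice and 1.11 ± 0.61% in aged mice (SD, n = 2 each, plain CPM). The aged values rested on 41 and 25 UMIs. When each section was clustered alone, the adult value was 38.1%, because adult section 1 alone gave 60.9%. Rtn4r was at 39.5 ± 1.7% of its CTX level at P21, 46.8 ± 3.1% in adult mice and 28.8 ± 7.6% in aged mice. Lingo1 was at 45.3 ± 5.3%, 56.3 ± 3.9% and 35.5 ± 1.4%, and Rtn4 at 81.9 ± 6.4%, 78.0 ± 2.0% and 84.8 ± 1.2%. Rtn4rl1 and Gap43, whose home regions were TH and HY, have no such value. The percentages pool TH and HY, which differ in level, and the mix of the regions can differ between sections. Aged section 1 had 669 TH and 614 HY spots at all distances, and aged section 2 had 415 and 850. The part of this mix in the percentages was not tested.

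10 other genes that mark CTX and HP neurons, such as Emx1, Slc17a7 and Slc30a3, were read the same way. Their median distant level was 12.1% of home at P21, 16.2% in adult mice and 3.54% in aged mice. The range over the genes was 7.04 to 77.1%, 8.56 to 86.9% and 0.883 to 95.1%. Cux2 and Rasgrf2 were not confined to CTX and HP, and their distant percentage of home did not fall in aged vs. adult mice. Cux2 was at 68.7% at P21, 86.9% in adult mice and 95.1% in aged mice, and Rasgrf2 at 77.1%, 48.6% and 78.0%. The rest of the 10 were lower in aged than in adult mice. In TH, 9 of these 10 genes were called lower in aged vs. adult sections and 1 higher, with a median log2 fold change of −2.73, where 6.92% of tested genes were called lower. Their summed TH level was 1400 and 1406 CPM at P21, 1472 and 1575 in adult mice, and 1010 and 806 in aged mice. In HY, 8 of 10 were called lower (median −2.24), where 5.37% of tested genes were, and in CTX 1 of 10 (median −0.18), where 3.88% were. STR had 8 of 10 called lower (median −1.90), where 6.16% of tested genes were, and FT 10 of 10 (median −1.03), where 14.8% were. Markers of other places moved too. Of 6 choroid plexus genes, 3 were tested in TH and all 3 were called lower in aged sections (median −3.74). The 6 summed to 915 and 613 CPM in adult TH and 70.9 and 42.7 in aged TH. In HP they summed to 522 and 236 CPM in adult mice and 1133 and 61.5 in aged mice. There 0 of 2 tested were called, where 5.72% of tested genes were called higher and 6.03% lower. In STR, where Rtn4rl2 was lower, 1 of 2 tested was called higher and 0 lower (8.07% and 6.16% of tested genes). CTX had 1 tested, which was called lower (3.88% of tested genes). The 6 summed there to 428 and 244 CPM in adult mice and 28.8 and 27.0 in aged mice. HY had 1 of 2 called lower (5.37% of tested genes) and FT 2 of 3 (14.8%). In CTX, 4 of 8 thalamic neuron markers were called lower and 0 higher, with a summed level of 175 and 160 CPM in adult mice and 81.1 and 82.9 in aged mice. Rtn4rl2 in aged TH, HY, STR and FT thus moved beside most of the other genes that mark CTX and HP neurons. In TH, HY and FT it also moved beside genes of the choroid plexus, which were lower in aged CTX too, where Rtn4rl2 was not. The part of these genes in its values was not tested.

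**Figure D3:**
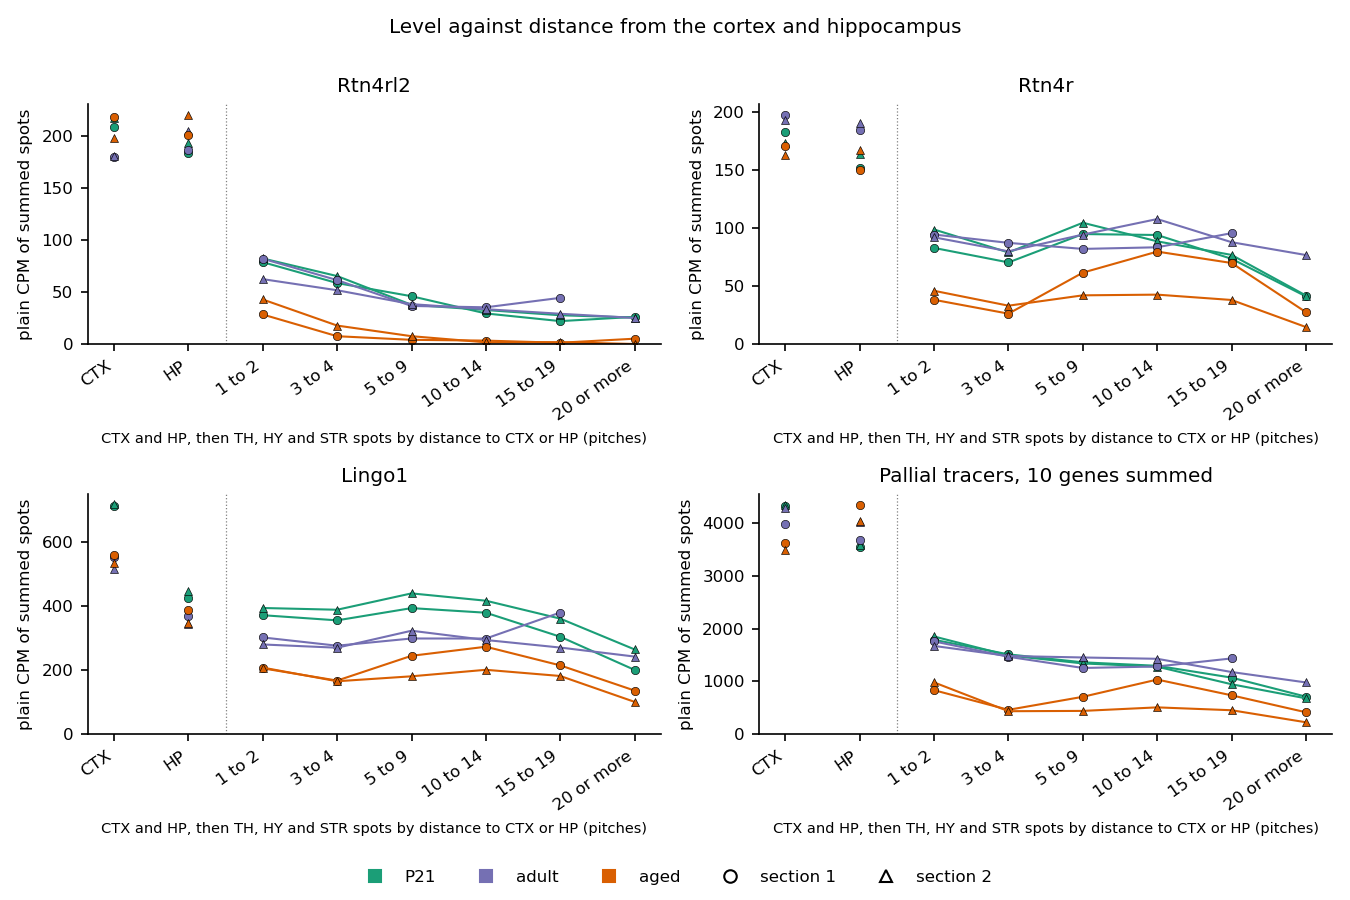
Level (plain CPM, linear axis from 0) of Rtn4rl2, Rtn4r, Lingo1 and the 10 summed tracer genes in CTX, in HP and in TH, HY and STR spots by distance in spot spacings from the nearest CTX or HP spot, 1 line per section. Aged lines of Rtn4rl2 drop to 7.48 and 17.7 CPM by 3 to 4 spacings, below all P21 and adult lines. The farthest bin of adult section 1, with 5 spots, is omitted.

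The P21 vs. adult comparison asks what the end of juvenile development does to these genes, and there all sections were made the same way. A gene was called changed at an adjusted p under 0.05, more than 1.5-fold, with more than 10% of spots positive. By this rule edgeR called 0 of the 6 genes in CTX, HP, TH, HY, STR or FT, where 4.76%, 6.64%, 7.03%, 3.87%, 3.96% and 9.39% of all tested genes were called in either direction. Over the 36 pairs of gene and region, 12 had an unadjusted p under 0.05 and 0 of those passed 1.5-fold, and DESeq2 also made 0 calls. At an adjusted p under 0.05 alone, Lingo1 was higher at P21 in 4 regions and Gap43 in 2. Lingo1 differed by a log2 fold change of 0.42 ± 0.08 (SE) in CTX (adjusted p = 0.001972), 0.38 ± 0.09 in TH (adjusted p = 0.01239), 0.43 ± 0.09 in STR (adjusted p = 0.008593) and 0.52 ± 0.09 in FT (adjusted p = 1.64e-04). Its FT difference passed 1.5-fold without adult section 1, at 0.63 (adjusted p = 1.19e-04), and with each section clustered alone, at 0.68 (adjusted p = 0.01359).

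Gap43 was higher at P21 in HP, by 0.36 ± 0.11 (adjusted p = 0.0405), and in TH, by 0.30 ± 0.08 (adjusted p = 0.03032), both under 1.5-fold. Rtn4rl2 in CTX had a log2 fold change of 0.24 ± 0.08 (adjusted p = 0.0527). In the other 5 regions its estimates ran from −0.21 ± 0.19 in HY to 0.15 ± 0.10 in FT. Rtn4r estimates ran from −0.29 ± 0.11 in HY to 0.05 ± 0.14 in STR and Rtn4 estimates from −0.24 ± 0.09 in CTX to −0.03 ± 0.09 in FT. For Rtn4rl1 they ran from −0.21 ± 0.11 in HP to 0.16 ± 0.09 in TH. None of these had an adjusted p under 0.05.

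Whether the P21 difference varied between the 6 regions was tested with an interaction term over all genes, which was called for 11.6% of those tested. Lingo1 was called, with an adjusted p of 0.02455, and relative to CTX its P21 log2 fold change differed by −0.38 in HY and −0.16 in HP. The call was lost without P21 section 1 (adjusted p = 0.3551), adult section 1 (0.2725) or adult section 2 (0.2927). Gap43 had an adjusted p of 0.09612, Rtn4rl2 0.2118, Rtn4 0.359, Rtn4rl1 0.4059 and Rtn4r 0.5507. Without aged section 1 or 2, Rtn4rl2 (0.01523 and 0.01438) and Gap43 (0.0159 and 0.01684) also passed 0.05.

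**Figure D4:**
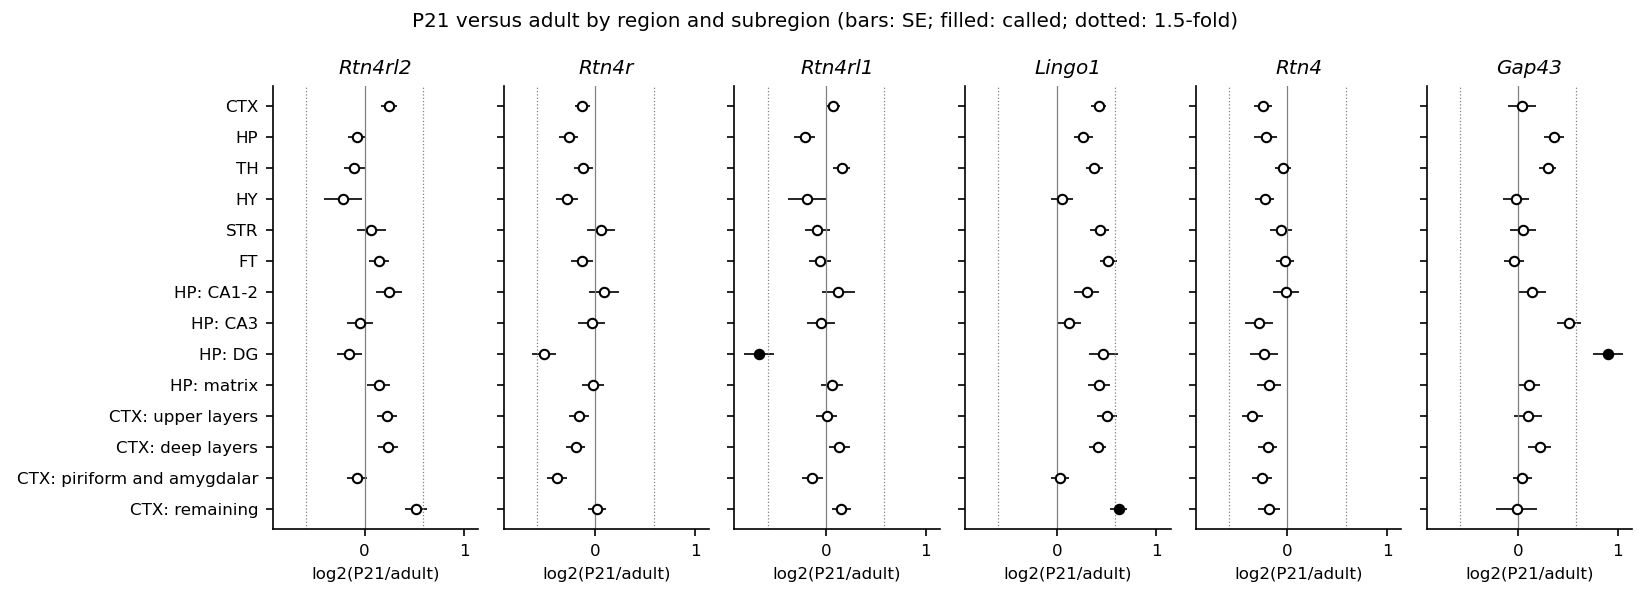
Log2 fold change of P21 vs. adult for the 6 genes in the 6 large regions and 8 subregions of HP and CTX, with bars for 1 SE, dotted lines at 1.5-fold and filled points for calls. The 3 filled points are Gap43 in DG (0.90), Rtn4rl1 in DG (−0.68) and Lingo1 in the remaining cortex (0.62).

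Within HP, clusters separated CA1-2, CA3, the dentate gyrus (DG) and the remaining matrix. DG, where new granule neurons are still made at P21, was the subregion with calls. Gap43 in DG was 187 and 209 CPM at P21, 103 and 108 in adult mice and 98.8 and 77.8 in aged mice, and P21 exceeded adult by 0.90 ± 0.15 (adjusted p = 4.94e-04). Rtn4rl1 went the other way in DG, with 112 and 101 CPM at P21 and 155 and 187 in adult mice, a log2 fold change of −0.68 ± 0.15 (adjusted p = 0.006094). Aged animals had 133 and 150 CPM. This call was lost without P21 section 1 (adjusted p = 0.08714), P21 section 2 (0.1091) or adult section 2 (0.1629). Rtn4r in DG was 185 and 195 CPM at P21, 276 and 266 in adult mice and 220 and 211 in aged mice, with a log2 fold change of −0.51 ± 0.12, under 1.5-fold (adjusted p = 0.008724). These were 2 of 6 genes called in DG, where 6.74% of tested genes were called, and edgeR called 0 of 6 in CA1-2 (2.35%), CA3 (2.39%) and the matrix (5.25%). By edgeR, Lingo1 was higher at P21 in DG, by 0.47 ± 0.15 (adjusted p = 0.0475), and in the matrix, by 0.43 ± 0.11 (adjusted p = 0.01823), both under 1.5-fold.

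Rtn4rl2 was highest in the cell layers of HP, with 252 and 284 CPM at P21, 226 and 222 in adult mice and 260 and 244 in aged mice in CA1-2. CA3 gave 242 and 277, 247 and 275, and 219 and 255 CPM, and DG gave 207 and 219, 226 and 246, and 231 and 216 CPM. The matrix, with 1290 of the 1906 HP spots, was lower at 141 and 146, 120 and 139, and 136 and 147 CPM. The P21 vs. adult adjusted p of Rtn4rl2 was 0.3868 in CA1-2, 0.9247 in CA3, 0.5161 in DG and 0.4968 in the matrix. Gap43 in CA3 was 359 and 391 CPM at P21, 261 and 262 in adult mice and 110 and 114 in aged mice, with 0.51 ± 0.12 for P21 vs. adult (adjusted p = 0.01013), under 1.5-fold. In CA1-2 Gap43 was 337 and 358, 286 and 340, and 131 and 97.5 CPM. Aged sections were below adult ones in each of the 4 subregions for Gap43, most in CA1-2 (−1.49) and least in DG (−0.30).

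**Figure D5:**
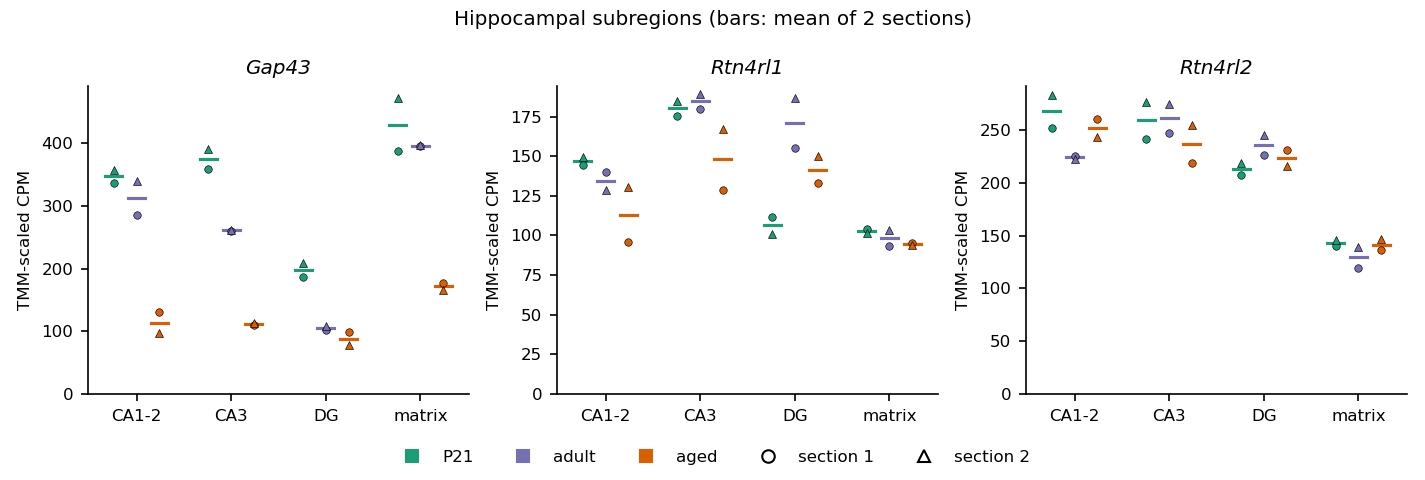
Level (TMM-scaled CPM) of Gap43, Rtn4rl1 and Rtn4rl2 in 4 hippocampal subregions, with 1 point per section and a bar for the mean. Gap43 in DG lies at 187 and 209 at P21 and at 103 and 108 in adult mice, while Rtn4rl1 in DG lies at 112 and 101 at P21 and at 155 and 187 in adult mice.

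In the cortical subregions 1 call was made. It fell in the remaining cortex, a cluster of 2124 spots that no marker panel named, so its place among the layers is not known. Lingo1 there was 758 and 750 CPM at P21, 500 and 480 in adult mice and 595 and 550 in aged mice. By edgeR, P21 exceeded adult by 0.62 ± 0.08 (adjusted p = 3.86e-04). This was 1 of 6 genes where 5.18% of tested genes were called. In upper layers (5.99% called), deep layers (5.34%) and the piriform and amygdalar cluster (4.33%) edgeR called 0 of 6. Over the 36 pairs in the 6 subregions of HP and CTX without a call, 12 had an unadjusted p under 0.05, and DESeq2 made the same number of calls over all 8 subregions, 3. Lingo1 was nonetheless higher at P21 at an adjusted p under 0.05 in upper layers, by 0.50 ± 0.10 (adjusted p = 6.02e-04), and in deep layers, by 0.41 ± 0.09 (adjusted p = 0.002948). Rtn4rl2 in the remaining cortex was 204 and 208 CPM at P21, 138 and 150 in adult mice and 183 and 144 in aged mice, 0.52 ± 0.11 higher at P21 (adjusted p = 0.009233), under 1.5-fold. Rtn4r in the piriform and amygdalar cluster had a log2 fold change of −0.39 ± 0.10 (adjusted p = 0.0088), also under 1.5-fold. Rtn4 in upper layers had −0.35 ± 0.10 by edgeR (adjusted p = 0.02412), under 1.5-fold too.

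Genes of myelin-forming cells differed between P21 and adult sections. Of 8 mature oligodendrocyte markers, 7 were called higher at P21 in CTX, HP, TH, STR and FT and 5 in HY, where 1.95% (HY) to 5.36% (FT) of all tested genes were called higher. Their summed CTX level was 11870 and 11100 CPM at P21, 5137 and 4366 in adult mice and 3155 and 3176 in aged mice. In HP, TH and HY the aged sums were also below the adult ones, and in STR they overlapped. In FT they were higher, at 50130 and 48810 CPM in aged mice against 42300 and 40750 in adult mice. Erythrocyte genes, which mark blood left in the tissue, were called higher at P21 in all 6 regions (3 of 3 tested). The part of either in the P21 values above was not tested. Pan-neuronal markers gave 0 calls of 6 at P21 in each region. Their summed level was nonetheless lower in both P21 sections than in both adult ones in all 6 regions. In CTX it was 6881 and 6534 CPM at P21 and 8545 and 8137 in adult mice. The part of these sums in the P21 values was not tested. In aged FT, 4 of 5 microglial markers were called higher and 4 of 6 pan-neuronal markers lower, where 12.8% of tested genes were called higher and 14.8% lower, beside the lower FT levels of Rtn4rl2, Rtn4r, Rtn4rl1, Lingo1 and Gap43, and their part in those levels was not tested.

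A wider list of 43 genes held the partners of the 6: other ligands, co-receptors, reticulons, the RhoA arm, Gap43-like membrane proteins, growth cone cytoskeleton and regeneration-associated factors. Several had been named by the study from these sections, so their direction is not independent evidence. Of the 43, 37 were tested, while Ngfr (the p75 receptor), Lingo4, Pirb, S1pr2, Atf3 and Sprr1a did not pass the filter on low counts and were at or below 3.92 CPM in every whole section. At P21, 6 of 37 were called higher in CTX, 8 in HP, 7 in TH, 4 in HY, 7 in STR and 7 in FT, where 3.06%, 5.03%, 4.28%, 1.95%, 2.81% and 5.36% of all tested genes were called higher. By edgeR 0 were called lower, where 1.7%, 1.61%, 2.75%, 1.92%, 1.15% and 4.03% of all tested genes were. Over the 222 pairs of gene and region, 20 were lower at an unadjusted p under 0.05, 0 of them by more than 1.5-fold, and DESeq2 also called 0 lower. The median log2 fold change of the 37 was 0.12, 0.15, 0.18, 0.06, 0.18 and 0.16 in that order, against −0.02 to 0.00 over all tested genes.

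Among the ligands, Mag, the myelin-associated glycoprotein, was called higher at P21 in all 6 regions, by 0.91 ± 0.15 in HY (adjusted p = 0.01151) to 1.69 ± 0.12 in HP (adjusted p = 4.57e-06). Its HP level was 732 and 610 CPM at P21, 232 and 183 in adult mice and 87.5 and 78.1 in aged mice, so the age groups did not overlap. Of the Gap43-like proteins, which share its membrane and calmodulin binding habits, Marcksl1 rose most, with 272 and 267 CPM at P21 in CTX against 69.2 and 75.7 in adult mice and log2 fold changes of 1.26 ± 0.15 in HY to 2.17 ± 0.10 in FT. Marcks, its close relative, was called in all 6 regions at 0.59 in CTX to 1.33 in FT. Of the growth cone cytoskeleton, Dpysl5, a collapsin response mediator protein, was called in all 6 regions (0.60 in HY to 1.48 in HP), Dpysl3, another, in 5, and Tuba1a, an alpha-tubulin of young neurons, in 4. Nrep, a neuronal regeneration-related protein, was called in 4 regions, reaching 0.87 ± 0.10 in TH (adjusted p = 2.20e-04). In the RhoA arm edgeR called 0 genes, with 13 of 42 pairs at an unadjusted p under 0.05, and Rock2, the kinase that RhoA activates, had the lowest mean estimate of the list (−0.31).

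In aged vs. adult sections, calls on the 37 tested genes went mainly down, and slide version and transfer cannot be told apart from age in them. In CTX 1 was called higher and 4 lower, where 6.27% and 3.88% of tested genes were called higher and lower. HP had 2 higher and 4 lower (5.72% and 6.03%), TH 0 (4 of the 37 were higher at an unadjusted p under 0.05) and 6 (6.87% and 6.92%), and HY 1 and 6 (6.5% and 5.37%). STR had 2 and 10 (8.07% and 6.16%), and FT 1 and 15 (12.8% and 14.8%). The medians were −0.15, −0.14, −0.14, −0.18, −0.27 and −0.37 on the log2 scale, against −0.04 to 0.01 over all tested genes.

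Nrep was called lower in all 6 regions of the aged sections, by −0.93 ± 0.11 in HY (adjusted p = 8.30e-04) to −1.97 ± 0.20 in HP (adjusted p = 4.27e-05), where it fell from 159 and 129 CPM to 25.1 and 47.1. Mag was called lower in CTX, HP, TH and HY (−0.88 to −1.33). Olfm1, a secreted olfactomedin that binds Rtn4r, was called lower in TH, HY, STR and FT, from −0.80 ± 0.09 in TH to −1.59 ± 0.09 in STR. Nrn1, a lipid-anchored neurite growth factor, was called lower in HY, STR and FT, and its STR level went from 268 and 210 CPM to 32.1 and 41.4 (−2.70 ± 0.13, adjusted p = 2.75e-10). Stmn2, a stathmin of growth cones, was lower in CTX, STR and FT, and Basp1, a Gap43-like protein, in TH, STR and FT. Most of the 10 genes that mark CTX and HP neurons were also called lower in TH, HY, STR and FT, and their part in these values was not tested.

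Nrgn, a calmodulin-binding protein of the same group made mainly by forebrain neurons, was called both ways. It was higher in aged CTX (0.86 ± 0.11, adjusted p = 6.72e-05), HP (0.66 ± 0.11) and STR (0.65 ± 0.10) and lower in TH (−2.63 ± 0.18, adjusted p = 3.81e-06) and FT (−0.70 ± 0.10). Its TH level was 234 and 281 CPM at P21, 270 and 196 in adult mice and 43.7 and 31.4 in aged mice. Lingo3, a relative of Lingo1, was called higher in aged HP (1.14 ± 0.11) and STR (0.79 ± 0.12) and lower in TH (−0.65 ± 0.21, adjusted p = 0.03422). Rhoa itself had the highest mean estimate (0.55) and was called in FT, at 0.78 ± 0.08 (adjusted p = 2.31e-07).

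Genes whose pattern was most like each of the 6 were found by Pearson's r of log2 levels over 36 sums, the 6 sections in 6 regions, among 11337 genes. These sums share sections and depth, so r is a description. Rtn4rl2 was most like Fhl2 (r = 0.984), Emx1 (0.961) and Slc30a3 (0.960). Rtn4r was most like Cck (0.971), Sv2b (0.970) and Slc17a7 (0.943), and Rtn4rl1 most like Syt7 (0.973), Ociad2 (0.956) and Rnf112 (0.947). For Rtn4 they were Zfp131 (0.907), Ufm1 (0.905) and Serinc3 (0.903), for Lingo1 Mapk8 (0.943), Sprn (0.939) and Brinp2 (0.934), and for Gap43 Rgs17 (0.934), Cdh4 (0.933) and Timp2 (0.929). Among the 6 themselves, Rtn4r and Lingo1 were most alike (0.931), followed by Rtn4rl1 and Lingo1 (0.814), Rtn4r and Rtn4rl1 (0.807) and Rtn4rl2 and Rtn4r (0.754).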

How the data were processed

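6 coronal sections were read as spot by gene tables. The deposited values are raw UMI counts, which the authors made against mm10 with Space Ranger, whose version in the file headers is 2.0.0 at P21 and in adult mice but 3.1.1 at 28 months (the submitters' processing notes name Space Ranger 2.1.0 and Seurat 5.1.0). The authors also deposited a Moran's I score per gene and section. Spots with at least 250 genes and 500 UMIs were kept. Values were log-normalized and scaled within each section, reduced to 10 principal components of 3000 variable genes (49 genes of the members' lists left out), and clustered with leidenalg 0.10.2, which gave 14 clusters named from marker panels. UMIs were summed per section and region. edgeR 4.0.16 (R 4.3.3) fitted TMM-scaled counts by its quasi-likelihood test over all 6 sections in each region, with Benjamini-Hochberg adjustment over all genes tested. Genes passed filterByExpr and had UMIs in more than 10% of the region's spots in a compared group and in at least 10% of all spots. The interaction test fitted 6 regions together with section as a term. The 2 sections of a group are labelled as separate biological replicates, and their number limits the precision. DESeq2 1.42.0 served in alternatives, SciPy 1.17.1 (Python 3.11.15) for sums and matplotlib 3.10.9 for figures.

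The members and all gene lists were chosen with earlier results of these data known. The text names the 6 genes, pathway genes called in at least 3 of 6 regions with the highest and the lowest mean estimate, and the 3 most alike genes of each member. Alternatives were plain CPM, DESeq2 size factors, the DESeq2 test, filterByExpr alone, leaving out each section, a replicate block, spots inside a region only, regions from each section alone and other distance limits. The scripts were tested on simulated data. Floors and intervals cover counting error only. Aged sections share 0 spot barcodes with P21 and adult sections, and pairs on the same slide version share 2612 to 3364, as printed positions recur.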

Additional observations from a re-analysis of the deposited data

Results flagged for a closer look

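The P21 vs. adult difference of Lingo1 was unlike between regions by the interaction test of edgeR (adjusted p = 0.02455), and 3 of 6 fits with 1 section left out lost it.

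For 3 genes both aged sections lay above both adult sections in one region and below them in another. The share of all genes that did the same was not computed, so this count is a description only. Rtn4rl2 had an aged vs. adult log2 fold change of 0.196 in CTX and −3.4029 in TH, Rtn4rl1 of 0.1319 in TH and −1.3694 in FT, and Gap43 of 0.3665 in HY and −1.2296 in HP. The difference between the regions was not tested for these 3 genes, since this comparison chose Rtn4rl2. With 2 sections per group no section could be examined as an outlier.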

How the results depend on the processing

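Calls counted as gene and region pairs were 0 for the 6 genes at P21 vs. adult, and 39 higher and 0 lower for the pathway genes, and 7 higher and 45 lower for aged vs. adult. The 6 genes gave 1 call, Lingo1 in FT, with regions from each section alone. filterByExpr without the share of spots gave 14 higher pathway calls in aged sections in place of 7, from more genes tested. With 1 section left out, where the lone section is assumed to vary like the other groups, the 6 genes gave 0 to 1 calls, pathway calls at P21 were 27 to 39 higher and 0 to 1 lower, and in aged sections 7 to 8 higher and 39 to 57 lower. Interaction calls were 0 to 3 (Lingo1, Rtn4rl2 and Gap43 without an aged section) against 1, and calls in HP and CTX subregions 2 to 4 against 3.

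The distant level of Rtn4rl2 at P21 was 16.11% of home at 5 or more spacings, 13.45% at 15 or more and 15.95% with sections alone, and in adults 38.08% with sections alone. Rtn4r at P21 was 43.41% and 32.36% at 5 and 15 or more spacings. Rtn4 in adults was 80.03%, 74.74% and, with sections alone, 73.73%, and in aged animals 82.5% at 15 or more. Lingo1 at 15 or more was 39.08% at P21, 60.17% in adults and 31.13% in aged animals, at 5 or more 37.31% in aged animals, and with sections alone 65.7% in adults and 37.07% in aged animals. The cause was not tested.

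Replicate numbers were no pairing by the labels: deviations of same-numbered sections correlated at 0.139 for P21 and adult, −0.135 for P21 and aged and −0.443 for adult and aged, over 2 pairs each. With the number as a replicate block the 6 genes gave 0 calls and the pathway genes 38 higher at P21 and 7 higher and 45 lower in aged sections. Crossing the aged numbers, an alternative chosen after seeing the data, gave 7 higher and 45 lower. Of 501 P21 values of the 6 genes by region and setting, 496 kept their side of the threshold, 2 gained a call and 3 lost one. Direction was not counted for values that were never called, and small estimates can change sign with the sections used. Gap43 in CTX, for example, had values that overlapped, 668 and 846 CPM at P21 and 667 and 806 in adult mice. Of 468 aged values, 447 moved by less than the spread of 2 sections and 21 by more, and none of those 21 changed sign. Depth limits Rtn4rl2 in aged sections, which rested on 41 and 25 UMIs in distant spots and on 3 and 12 UMIs in RT.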
